A study of Homo sapiens with 10 samples.

Results

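The A549 line carrying the ABCA3 variant L101P was compared with the wild-type (WT) A549 line in 4 of the 10 RNA-seq libraries of the series. They were chosen by their labelled genotype and treatment: an untreated and a transduced L101P library, and an untreated and a transduced WT library. A549 is an established human lung adenocarcinoma line with some alveolar epithelial features. Transduced cells had been exposed overnight to a lentivirus encoding ABCA3 joined to GFP, used at a multiplicity of infection (MOI) of 20. The other 6 libraries were from a line labelled ABCA3 knockout (KO) and from the E292V and E690K variant lines, each untreated and transduced in the same way. All 5 lines shared the A549 background and the same culture medium, with 1 library per line and treatment. How the lines were made and whether each was 1 clone is not given in the sources used here, so that a difference between L101P and WT belongs to these lines, and the variant and the line cannot be told apart.

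ABCA3 is a member of the ATP-binding cassette family that moves phospholipids into lamellar bodies, the organelles in which alveolar type 2 cells store surfactant. It is made in the endoplasmic reticulum (ER) and cleaved on its way to the lamellar body. Pathogenic ABCA3 variants are commonly divided into type 1, in which folding or trafficking fails, and type 2, in which the protein reaches its compartment but transports lipid poorly. L101P is known as a type 1 variant, and E292V and E690K are known as type 2 variants. The unfolded protein response, which raises ER chaperones when misfolded protein accumulates, and the lipid and lysosome genes were therefore among the gene lists examined.

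The position of the variant is shown first, since it defines the line. The codon of ABCA3 that L101P changes lies in exon 5 of 33 of transcript ENST00000301732.9, at chr16:2326026-2326028 on the minus strand of GRCh38 (GENCODE release 29). The reference sequence of the surrounding 63 coding bases is given 5′ to 3′ with the leucine codon in capitals.
ABCA3 around the L101P codon: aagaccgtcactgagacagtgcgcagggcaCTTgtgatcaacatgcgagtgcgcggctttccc
The deposited counts are per gene and hold no base calls, so the variant itself could not be read from them.

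Total counts of the untreated and the transduced library were 83544281 and 81249003 in WT, and 59430095 and 96811421 in those of L101P. Levels are given in CPM, the count scaled to the library total, with 95% Wilson intervals on read pairs that cover counting error only. A count of 0 was taken to allow up to 3 read pairs, or 6 counts, which was 0.101 CPM in the untreated and 0.062 CPM in the transduced L101P library. Single-library levels have no replicate error. The epithelial keratins KRT8 and KRT18 were at 1830 CPM or more in all 4 libraries, while SFTPA1, SFTPA2, SFTPB, SFTPC and SFTPD, which encode the surfactant proteins, stayed at or below 0.345 CPM. The labels name the cells as alveolar basal epithelium. Of other defining alveolar type 2 genes, NAPSA was at 0.578 to 0.774 CPM, and SLC34A2 had 0 to 6 counts.

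The targeted gene and the reporters were examined before other genes. ABCA3 was at 362 CPM in untreated WT cells (95% interval 356 to 368), at 610 CPM in transduced WT cells, and at 1160 and 896 CPM in the untreated and transduced L101P cells. Both L101P libraries lay above both WT libraries, 3.19 times higher in the untreated pair and 1.47 times in the transduced pair. The count cannot separate transcripts of the endogenous gene from those of the vector. Over all 10 libraries the log2 fold change was 1.03 (SE 0.79, edgeR adjusted p 0.543), which did not pass. That error included the KO pair, in which ABCA3 went from 601 CPM in the library labelled untreated to 25.8 CPM in the library labelled transduced, against its labels. Without the KO pair the log2 fold change was 1.15 with an edgeR adjusted p of 0.0108.

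A row for EGFP held reads in untreated cells as well. In WT it was at 70.9 CPM untreated and 153 CPM transduced, and in L101P at 1.01 and 35.9 CPM. The library labelled untreated WT thus had more EGFP than the transduced L101P library, and EGFP separated untreated from transduced cells far more sharply in L101P than in WT. In the fit, EGFP had a log2 difference from WT of -2.74 (SE 1.34, edgeR adjusted p 0.305). A row for tdTomato, a red fluorescent reporter, was at 3.88 and 2.90 CPM in WT and at 12.7 and 5.6 CPM in L101P (log2 fold change 1.41, SE 0.27, edgeR adjusted p 0.0147). That call was lost without the untreated or without the transduced WT library, and tdTomato had 0 counts in both KO libraries.

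**Figure D1:**
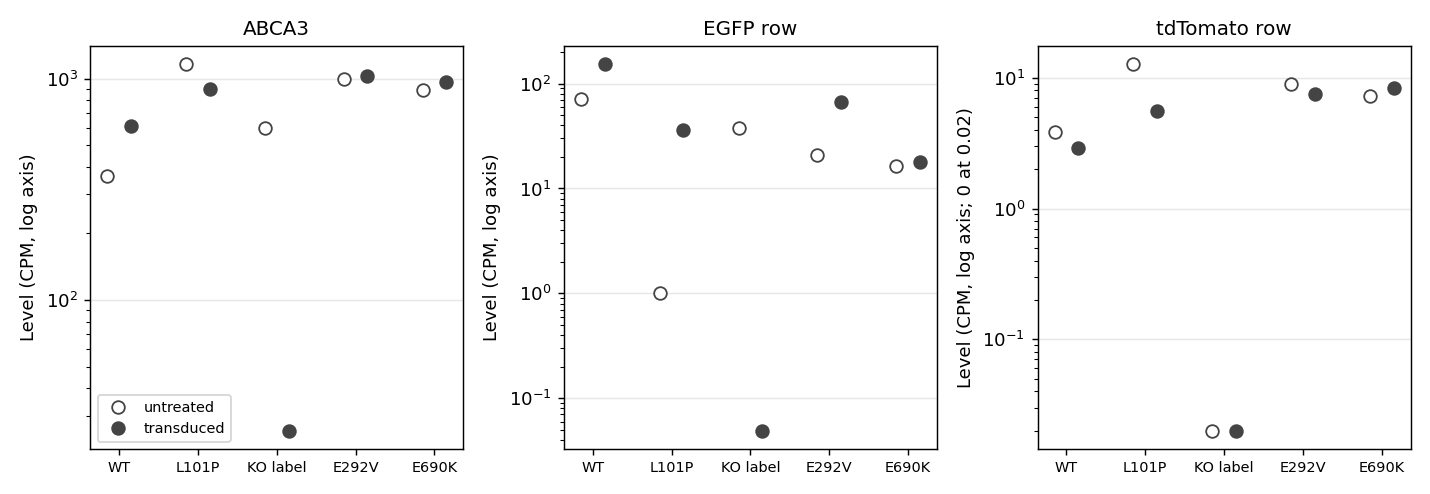
Levels of ABCA3 and of the EGFP and tdTomato rows (CPM, log axes) in the 10 libraries, 1 point per library, open for untreated and filled for transduced. ABCA3 was higher in both L101P libraries than in both WT libraries, and EGFP was at 70.9 CPM in the WT library labelled untreated.

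The difference between L101P and WT was tested in an additive model of line and vector status over the 10 libraries, whose error measures how far single libraries depart from additivity. Of 17978 genes tested, 709 passed an edgeR adjusted p of 0.05, or 3.94%. In L101P 419 were higher (2.33%) and 290 lower (1.61%), with a median absolute log2 fold change of 0.67. All 709 differed the same way in both pairs, as the test itself favours; 55.9% of all genes tested had. At least a 2-fold difference in both pairs was seen for 49 of the higher and 97 of the lower genes, beside 1.35% and 2.87% of all genes tested. For 519 of the 709 the difference was larger in the transduced pair. The number of genes depended on single libraries: it was 180 without the transduced WT library, 293 without the untreated WT library and 1967 without the untreated L101P library. It was 439 without the KO pair, whose levels of ABCA3 went against its labels, and 367 without the E690K pair. In a count made after the values were seen, 216 genes (115 higher, the rest lower) passed in all 10 settings that kept these 4 libraries. They held 21 of the 24 genes named below. GFRA1, APBB1IP and TINAGL1 were outside them, since the setting that required at least 10 counts in every library did not test these genes.

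**Figure D2:**
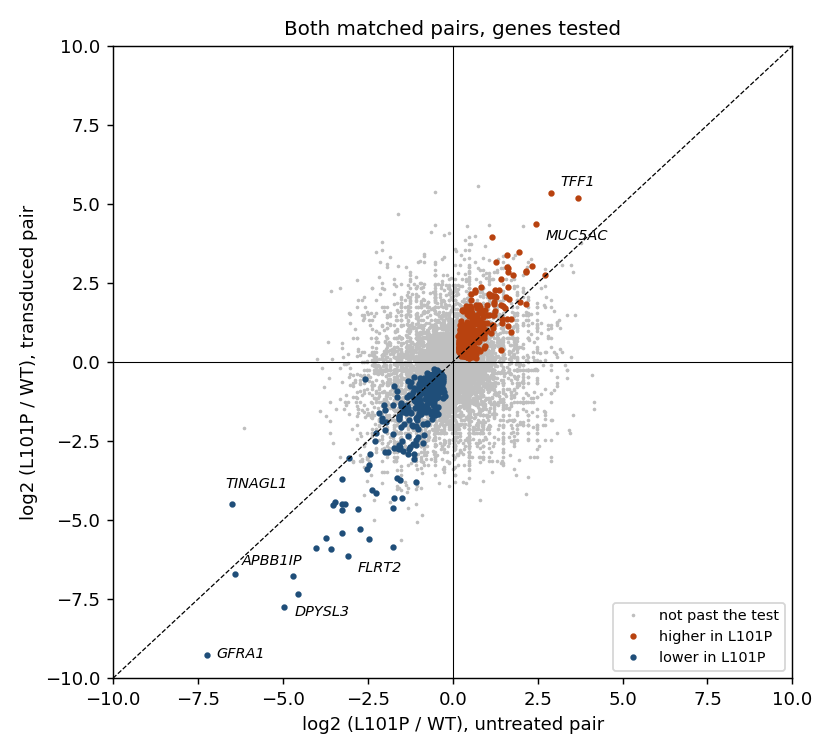
Log2 ratio of L101P to WT in the untreated pair (horizontal axis) and the transduced pair (vertical axis) for the genes tested, 1 point per gene, coloured where the test was passed; the dashed line marks equal ratios. Genes that passed lie to the lower left and the upper right of 0, with 519 of 709 farther from 0 in the transduced pair.

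The 12 genes higher in L101P by the most in both pairs included TFF1, MUC5AC, CEACAM6 and the keratins KRT16 and KRT17. TFF1, a secreted trefoil peptide that accompanies mucins, was at 2.82 CPM (2.36 to 3.38) and 2.58 CPM in the untreated and transduced WT cells. In L101P it was at 20.8 CPM (19.3 to 22.5) and 106 CPM (103 to 109). The groups did not overlap, and the ratio was 7.37 in the untreated and 41.1 in the transduced pair (log2 fold change 4.42, SE 0.61, edgeR adjusted p 0.0026). MUC5AC, the gel-forming mucin of goblet cells, was at 14.2 and 21.8 CPM in WT and at 77.4 and 447 CPM in L101P (3.71, SE 0.58, edgeR adjusted p 0.00537). CEACAM6, a cell-surface adhesion glycoprotein, was at 76.3 and 91.9 CPM in WT and at 230 and 963 CPM in L101P (2.74, SE 0.46, edgeR adjusted p 0.0079). For these 3 genes the transduced L101P library was the highest of the 4, and CEACAM6 no longer passed without the transduced WT library. Reads shared with paralogs make the levels of MUC5AC, CEACAM6, KRT16 and KRT17 uncertain, since the handling of such reads is not given in the sources used here.

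KRT17 and KRT16, keratins of stressed or stratified epithelium, followed the same order. KRT17 rose from 0.91 and 0.997 CPM in WT to 4.09 and 7.14 CPM in L101P (2.60, SE 0.30, edgeR adjusted p 0.0013). KRT16 rose from 1.84 and 1.46 CPM to 7.10 and 16.4 CPM (2.84, SE 0.42, edgeR adjusted p 0.00413). TRIM29, a tripartite-motif protein abundant in basal and squamous epithelium, was at 7.56 and 7.61 CPM in WT and at 23.4 and 54.5 CPM in L101P (2.35, SE 0.31, edgeR adjusted p 0.00216). In each of these 3 genes both L101P libraries were at least 3.09 times their WT partners. TNC, the matrix glycoprotein tenascin C, differed to a similar degree in both pairs, 3.93 and 3.70 times WT, with 4.79 and 7.16 CPM in WT and 18.8 and 26.5 CPM in L101P. LGR6, a receptor for R-spondins, was at 4.51 and 4.82 CPM in WT and at 15.6 and 32.4 CPM in L101P. ANO1, a calcium-activated chloride channel, was at 2.00 and 1.69 CPM in WT and at 6.11 and 13.6 CPM in L101P. FSTL4, a follistatin-like protein, was at 2.45 and 3.10 CPM in WT and at 10.9 and 22.9 CPM in L101P. Their log2 fold changes were 1.97 (SE 0.25) for TNC, 2.37 (SE 0.30) for LGR6, 2.38 (SE 0.31) for ANO1 and 2.60 (SE 0.22) for FSTL4, with edgeR adjusted p from 0.000383 to 0.00213. SYBU, a microtubule-linked vesicle protein, and the unnamed transcript AL590004.4 completed the 12 higher genes, with log2 fold changes of 1.93 (SE 0.35) and 1.69 (SE 0.23) and edgeR adjusted p of 0.0112 and 0.0025. SYBU no longer passed without the untreated WT library (edgeR adjusted p 0.0755).

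The 12 genes lower in L101P held receptors, matrix and cytoskeletal genes, several of which were near or at 0 counts. GFRA1, the receptor that binds GDNF and presents it to RET, had 640 and 1542 counts in the WT libraries (7.66 and 19 CPM) and 0 counts in both L101P libraries. Against the level that 0 counts allow it was at least 75.9-fold lower in the untreated pair and at least 306-fold lower in the transduced pair (edgeR adjusted p 2.99e-06). APBB1IP, the RAP1 effector that couples to talin in integrin activation, had 358 and 704 counts in WT and 0 and 8 in L101P (edgeR adjusted p 0.00303). It was at least 42.4-fold lower in the untreated pair and 105-fold lower in the transduced pair. DPYSL3, a collapsin response mediator of growth cones and actin bundling, was at 66.7 and 204 CPM in WT and at 2.15 and 0.95 CPM in L101P (log2 fold change -6.34, SE 0.56, edgeR adjusted p 0.000383). For these 3 genes each L101P library was at least 31.0-fold below its WT partner.

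TINAGL1 and SPARC encode secreted matrix proteins and FLRT2 a transmembrane adhesion protein. TINAGL1 was at 9.03 and 21.3 CPM in WT and at 0.101 and 0.95 CPM in L101P (log2 fold change -4.81, SE 0.49, edgeR adjusted p 0.000765). FLRT2 was at 8.19 and 23.4 CPM in WT and at 0.959 and 0.331 CPM in L101P (-4.53, SE 0.53, edgeR adjusted p 0.0013). SPARC was at 5.17 and 11 CPM in WT and at 0.942 and 0.227 CPM in L101P (-3.79, SE 0.60, edgeR adjusted p 0.00591). In all 3 the transduced WT library was the highest of the 4. MYL9, a regulatory myosin light chain, was at 8.10 and 5.85 CPM in WT and at 1.51 and 0.785 CPM in L101P (-2.60, SE 0.27, edgeR adjusted p 0.000765). FGF12, an intracellular FGF homologue that modulates sodium channels, was at 2.78 and 2.57 CPM in WT and at 0.656 and 0.754 CPM in L101P (-1.87, SE 0.24, edgeR adjusted p 0.00198). RARB, a retinoic acid receptor, was at 2.62 and 4.41 CPM in WT and at 0.774 and 0.909 CPM in L101P (-2.00, SE 0.38, edgeR adjusted p 0.014), a call lost without the transduced WT library. The glycosyltransferases MGAT3 and GALNT16 and the noncoding transcript C10orf91 were 3.70-fold to 7.12-fold lower in the 2 pairs, with edgeR adjusted p from 0.00213 to 0.00526.

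**Figure D3:**
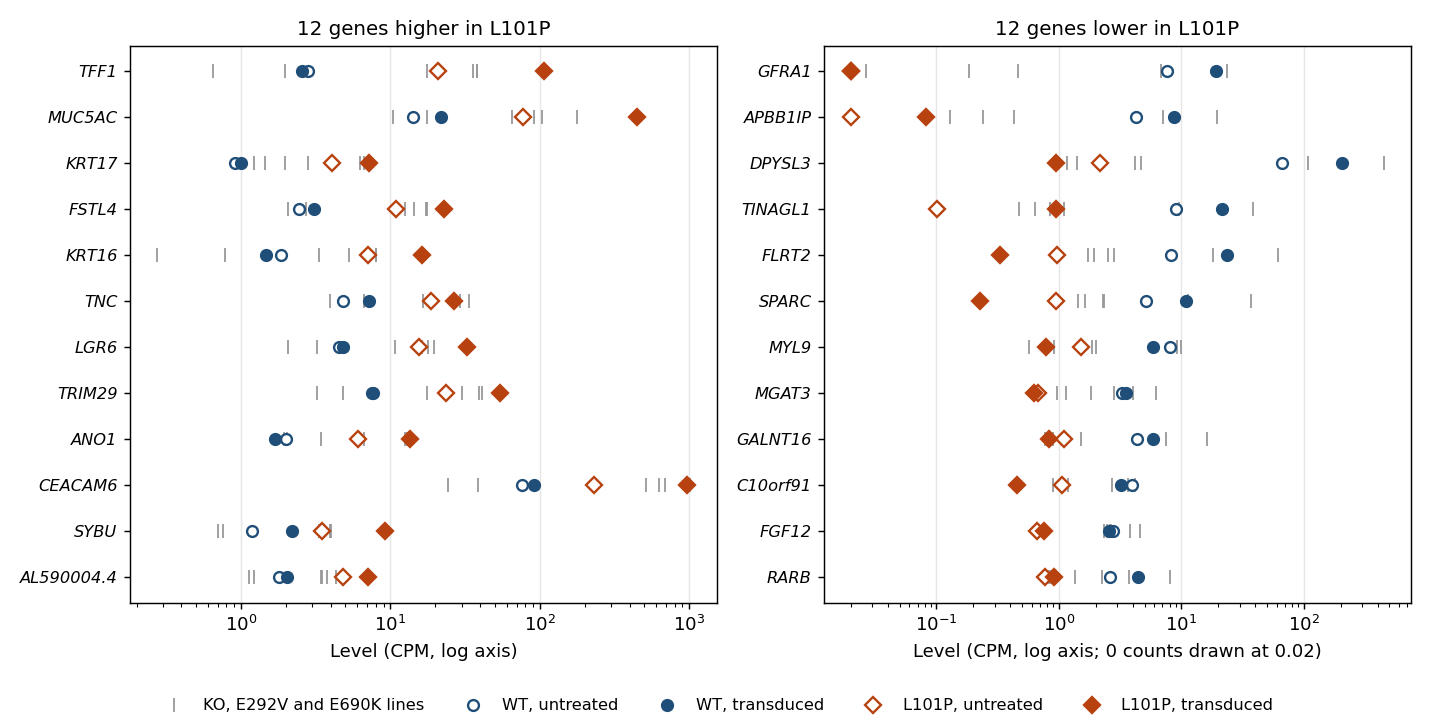
Levels (CPM, log axes) of the 12 higher and the 12 lower genes named by the ranking rule, with circles for WT, diamonds for L101P, open symbols for untreated and filled for transduced cells, and grey ticks for the 6 libraries of the KO, E292V and E690K lines. The WT and L101P symbols do not overlap for any of the 24 genes, a separation that the ranking rule selected.

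Promoters of 4 of these genes are printed to show the start regions of 3 genes that were far lower in L101P beside 1 that was higher; they were chosen after the values were seen. Each run is the 200 bases before the first listed start, 5′ to 3′ on the gene's strand, from RefSeq on GRCh38.p14, with CG dinucleotides in capitals.
GFRA1, chr10:116272476-116272675, minus strand: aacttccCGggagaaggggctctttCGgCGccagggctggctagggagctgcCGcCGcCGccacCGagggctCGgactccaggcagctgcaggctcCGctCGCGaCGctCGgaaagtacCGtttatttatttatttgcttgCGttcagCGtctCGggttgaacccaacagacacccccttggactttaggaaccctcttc
DPYSL3, chr5:147510069-147510268, minus strand: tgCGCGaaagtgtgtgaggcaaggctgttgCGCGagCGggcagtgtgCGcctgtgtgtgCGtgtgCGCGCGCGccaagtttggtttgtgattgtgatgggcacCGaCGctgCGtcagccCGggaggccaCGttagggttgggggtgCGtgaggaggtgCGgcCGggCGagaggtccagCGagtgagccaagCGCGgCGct
APBB1IP, chr10:26438141-26438340, plus strand: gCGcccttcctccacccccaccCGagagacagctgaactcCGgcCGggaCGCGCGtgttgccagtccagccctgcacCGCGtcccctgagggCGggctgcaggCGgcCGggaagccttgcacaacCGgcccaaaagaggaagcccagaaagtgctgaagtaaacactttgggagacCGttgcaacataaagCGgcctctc
CEACAM6, chr19:41755330-41755529, plus strand: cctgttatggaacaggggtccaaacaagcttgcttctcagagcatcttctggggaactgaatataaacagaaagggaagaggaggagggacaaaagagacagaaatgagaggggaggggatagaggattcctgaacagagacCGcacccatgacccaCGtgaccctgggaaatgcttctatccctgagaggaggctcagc
The windows of GFRA1, DPYSL3 and APBB1IP held 17, 24 and 15 CG dinucleotides and that of CEACAM6 held 2. Over the 250 bases before each start, the median was 11 in 35116 promoters, 8.0 in the 7 promoters of 5 higher named genes and 14.5 in the 20 promoters of 9 lower named genes that the table held. The counts ran from 2 to 35 in the 7 and from 1 to 34 in the 20, so the 2 sets overlapped. The AP-1 motif TGANTCA, searched on both strands, was in 0 of the 7 and 0 of the 20, against 6.57% of all promoters. The TEAD motif GGAATG was in 0 of the 7 and 5 of the 20, against 11.9%, and the forkhead motif TGTTTAC in 0 and 3, against 2.98%. Promoters of 1 gene overlap, and DNA methylation was not measured.

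The contrast of L101P with the mean of the other 3 edited lines uses no WT library, though it shares the L101P libraries with the comparison above. In that contrast 330 genes passed (1.84%), 212 higher (1.18%) and 118 lower (0.656%). Of the 709 genes, 116 were higher and 82 lower in both contrasts. Of the 24 named genes, 18 passed, 9 in each direction. The lines did not contribute alike. Contrasts with each line alone were added after the data were seen. In them all 24 named genes differed from E292V, 3 from KO (KRT17, MGAT3 and FGF12) and 2 from E690K (GFRA1 and FGF12). Over all genes tested, too, far more passed against E292V than against KO or E690K, as counted in the section on processing. The 24 genes were ranked on the same L101P libraries, so their passing in the contrasts with other edited lines is partly built in. Without the E292V pair only 11 genes passed in the contrast with the other edited lines, 683 passed without the KO pair, and 84 without the transduced L101P library.

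The levels show the same division. DPYSL3 was at 1.17 and 1.40 CPM in the KO pair and at 4.15 and 4.68 CPM in the E690K pair, but at 108 and 450 CPM in the E292V pair. MUC5AC was at 64.7 and 178 CPM in KO, 103 and 91.4 CPM in E690K, and 17.5 and 10.4 CPM in E292V. L101P thus lay beside KO and E690K for these genes, and WT beside E292V. FGF12 was the named gene lower in L101P than in each other line: it was at 2.34 to 4.63 CPM in the other 3 edited lines, and the log2 difference from their mean was -2.05 (SE 0.22, edgeR adjusted p 0.00169). KRT17 was at 1.22 to 2.79 CPM in the KO and E292V lines and at 6.64 and 6.30 CPM in E690K, near the L101P levels.

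The gene lists were read as counts of genes that passed, beside the 2.33% of all genes tested that were higher and the 1.61% that were lower, and by their median log2 fold change, beside -0.01 over all genes tested. The lists and their members were chosen with earlier results of these data known. Their shares describe the lists and are no independent test of them. The mucins, the large glycoproteins of the mucous layer and of epithelial surfaces, had 5 of 11 tested members higher and 0 lower (median 1.03, with 0.63 in the untreated and 1.52 in the transduced pair). Beside MUC5AC, MUC5B was at 205 and 275 CPM in WT and at 447 and 1200 CPM in L101P (log2 fold change 1.77, SE 0.38, edgeR adjusted p 0.0241). MUC13 was at 29.6 and 31.1 CPM in WT and at 50.5 and 109 CPM in L101P (1.41, SE 0.30, edgeR adjusted p 0.0223). MUC16 and MUC1 also passed, with log2 fold changes of 2.49 (SE 0.59) and 0.84 (SE 0.19). The mucin count was 3 without the KO pair or the transduced L101P library, 1 without the untreated WT library, 1 without the transduced WT library and 1 without the E690K pair, and 8 without the untreated L101P library.

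Among 14 tested trefoil and goblet cell genes 3 were higher and 0 lower (median 0.93). The list's median was -0.12 in the untreated and 1.45 in the transduced pair, and 7 of the 14 had the same direction in both. FCGBP, a mucus-associated protein, and GALNT5, which starts mucin-type glycosylation, passed beside TFF1, with log2 fold changes of 1.37 (SE 0.25) and 1.14 (SE 0.17). AGR2, an ER protein needed for mucin folding, did not pass: it was at 360 and 251 CPM in WT and at 315 and 884 CPM in L101P, so that the untreated pair was lower and the transduced pair higher (log2 fold change 0.99, SE 0.37, edgeR adjusted p 0.169). Of 5 CEACAM genes tested, CEACAM6 and CEACAM1 were higher (median 1.98, with 0.53 in the untreated and 3.29 in the transduced pair). CEACAM5 was at 3.66 and 3.14 CPM in WT and at 2.05 and 33.5 CPM in L101P, opposite in the 2 pairs. Without the transduced WT library 0 of the 5 passed, and without the untreated L101P library 4 did; the goblet cell count was then 11.

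Of 15 keratins tested, 6 were higher and 0 lower (median 0.71, with 0.12 in the untreated and 1.52 in the transduced pair). They comprised the simple epithelial keratins KRT8 and KRT19, the basal keratin KRT15, and KRT16, KRT17 and KRT80. KRT19 was at 139 and 140 CPM in WT and at 204 and 459 CPM in L101P (1.24, SE 0.26, edgeR adjusted p 0.0211). KRT18 and KRT7 did not pass, with edgeR adjusted p of 0.0584 and 0.0762. The keratin count was 3 without the transduced WT library, 3 without the E690K pair, 4 without the transduced L101P library and 12 without the untreated L101P library. Among 12 S100 genes, which encode small calcium-binding proteins, S100A3, S100A4 and S100A10 were higher (median 0.60), a count of 0 without the transduced WT library or the E690K pair and 1 without the KO pair.

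Markers of other cell types were summed over each list of 8 or 10 genes. The 10 airway basal and squamous markers summed to 10.4 and 13 CPM in WT and to 17.0 and 40.7 CPM in L101P, with TP63 and KRT15 passing 2 of 4 tested and SPRR1A, SPRR1B and SPRR3 at 0 counts in all 4 libraries. TP63, the master regulator of basal epithelium, was at 2.11 and 3.22 CPM in WT and at 4.91 and 12.2 CPM in L101P (log2 fold change 1.69, SE 0.36, edgeR adjusted p 0.0227). Neither TP63 nor KRT15 passed without the transduced L101P library, without either WT library or with the KO labels exchanged. The 8 fibroblast markers summed to 48.0 and 68.3 CPM in WT and to 35.5 and 23.7 CPM in L101P, with THY1 lower and COL1A2 at 0 counts in all 4. The ciliated and club markers summed to 19.2 and 16.8 CPM in WT and to 19 and 41.3 CPM in L101P. The neuroendocrine markers summed to 16.3 and 13.9 CPM in WT and to 18.8 and 34.5 CPM in L101P. Of 3 neuroendocrine markers tested, only CHGB passed, and 1 had a log2 fold change above 0. Their median was -0.02, with 0.47 in the untreated and -0.56 in the transduced pair. INSM1, CALCA and GRP were at 0 counts in all 4 libraries. The alveolar type 1 markers summed to 463 and 600 CPM in WT and to 465 and 476 CPM in L101P, with PDPN at 0. Leukocyte markers summed to 31.8 and 27.9 CPM and to 35.9 and 51.5 CPM, with CD3E at 0 and CD68 higher, and endothelial markers to at most 1.33 CPM. The part of cell composition in the results was not tested, and in bulk RNA fewer cells of a type and less RNA per cell cannot be told apart.

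Genes of the extracellular attachment of epithelia passed in part. Of 28 basement membrane and collagen genes 5 were higher and 1 lower (median 0.16), and of 22 integrin and RAP1 adhesion genes 4 were higher and 1 lower (median 0.03). The pair medians had opposite signs in both lists, 0.42 untreated and -0.20 transduced for the first and 0.11 and -0.16 for the other, and 10 of the 28 and 12 of the 22 had the same direction in both pairs. LAMB3, a laminin chain of epithelial basement membranes, was at 42.7 and 47.9 CPM in WT and at 98.4 and 133 CPM in L101P (1.39, SE 0.17, edgeR adjusted p 0.00168). LAMA3, another laminin chain, did not pass (0.22, SE 0.09, edgeR adjusted p 0.21). ITGB4 and ITGA6, an integrin pair of hemidesmosomes, passed with log2 fold changes of 1.06 (SE 0.14) and 0.69 (SE 0.11) and edgeR adjusted p of 0.0022 and 0.00526. ITGB4 was at 326 and 405 CPM in WT and at 612 and 881 CPM in L101P. COL17A1, a hemidesmosome collagen, and COL4A6 were higher, with log2 fold changes of 1.76 (SE 0.31) and 1.45 (SE 0.31), and COL13A1 was lower at -2.50 (SE 0.54). The basement membrane count of higher genes was 3 without either WT library or the E690K pair, and that of the integrin list 2 without the untreated WT library. LAMB3 was no higher in L101P than in E690K, where it was at 134 and 148 CPM.

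**Figure D4:**
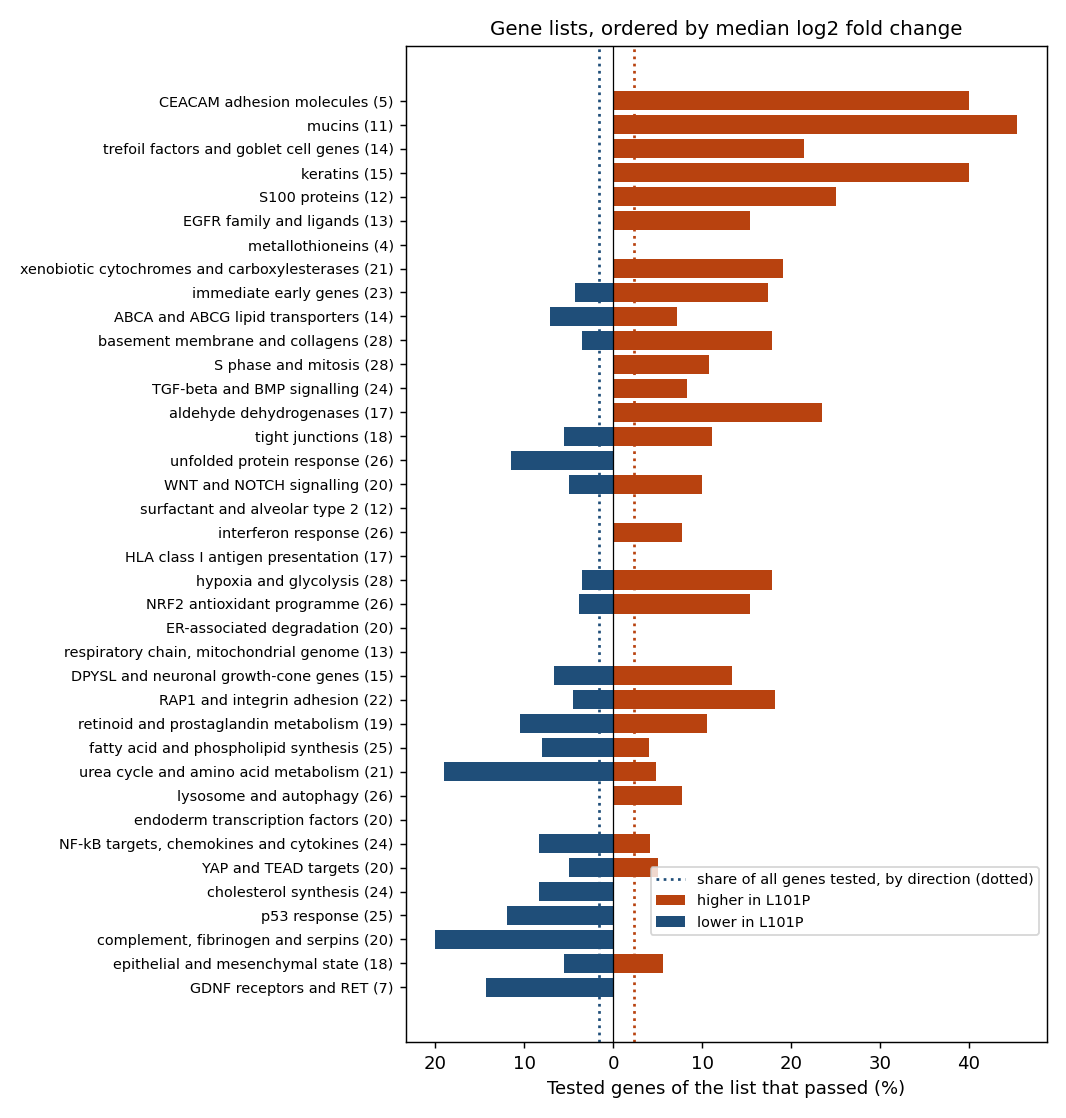
Share of tested genes that passed in each of 38 gene lists, higher to the right and lower to the left of 0, ordered by the list's median log2 fold change, with the number tested in parentheses and dotted lines at 2.33% and 1.61%, the shares of all genes tested. Mucins, CEACAM genes and keratins had the largest shares of higher genes and complement, fibrinogen and serpins the largest share of lower genes. The lists were chosen with earlier results of these data known.

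Most genes of the unfolded protein response did not pass. Of 26 tested, 0 were higher and 3 lower (median 0.12), 11 had an unadjusted p under 0.05 and 17 lay above 0. Of 20 genes of ER-associated degradation 0 passed in edgeR, 0 by the DESeq2 Wald test and 3 at an unadjusted p under 0.05 (median 0.06). Over all 17978 genes tested, 3292 had an edgeR unadjusted p under 0.05. HSPA5, the main ER chaperone, was at 568 and 616 CPM in WT and at 678 and 557 CPM in L101P, where the groups overlapped (0.10, SE 0.09, edgeR adjusted p 0.614). HSP90B1 was at 1010 and 1040 CPM in WT and at 1190 and 1110 CPM in L101P, above WT in both pairs but not past the test (0.20, SE 0.07, edgeR adjusted p 0.126). DNAJB9, HERPUD1 and XBP1 had log2 fold changes of 0.24, 0.14 and -0.10, with edgeR adjusted p from 0.322 to 0.653. The list of the unfolded protein response gave 2 higher genes under the DESeq2 Wald test, with no filter on low counts and without the untreated L101P library.

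The 3 lower genes of that list lie on the arm that ATF4 drives when amino acids are short or the ER is stressed. TRIB3, a pseudokinase that feeds back on ATF4, was at 77.3 and 73.2 CPM in WT and at 47.9 and 38.7 CPM in L101P (log2 fold change -0.76, SE 0.10, edgeR adjusted p 0.00234). CHAC1, which degrades glutathione, was at 5.46 and 4.75 CPM in WT and at 2.73 and 2.27 CPM in L101P (-1.0, SE 0.23, edgeR adjusted p 0.0302). ASNS, asparagine synthetase, was at 51.5 and 59.1 CPM in WT and at 32.4 and 28.2 CPM in L101P (-0.83, SE 0.11, edgeR adjusted p 0.0025). The L101P libraries lay below the WT libraries in all 3. CHAC1 lost its call without the E690K pair, without the transduced L101P library and without either WT library, while TRIB3 and ASNS kept theirs in every setting run. ATF4 itself was at 341 and 313 CPM in WT and at 285 and 319 CPM in L101P (-0.07, SE 0.08, edgeR adjusted p 0.697), and DDIT3 did not pass (log2 fold change -0.38, SE 0.16, edgeR adjusted p 0.241).

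Urea cycle and amino acid genes formed a list of their own, which held enzymes of serine synthesis. Of 21 tested, 1 was higher and 4 lower (median -0.03). PHGDH, the first enzyme of serine synthesis, was at 39.6 and 35.9 CPM in WT and at 23.6 and 18.0 CPM in L101P (-0.83, SE 0.11, edgeR adjusted p 0.0025). PSAT1, the next enzyme, was at 186 CPM in both WT libraries and at 143 and 110 CPM in L101P (-0.52, SE 0.09, edgeR adjusted p 0.00893), a call lost without the transduced WT library. BCAT1, a branched-chain aminotransferase, and TDO2, which degrades tryptophan, were lower by log2 fold changes of -2.36 (SE 0.47) and -1.76 (SE 0.43). CPS1, the entry enzyme of the urea cycle, was higher, at 26.4 and 28.2 CPM in WT and 70.7 and 36.6 CPM in L101P (0.94, SE 0.21, edgeR adjusted p 0.0274). Against E690K, ASNS and PHGDH did not pass (log2 differences -0.26 and -0.18, edgeR adjusted p 0.434 and 0.63).

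**Figure D5:**
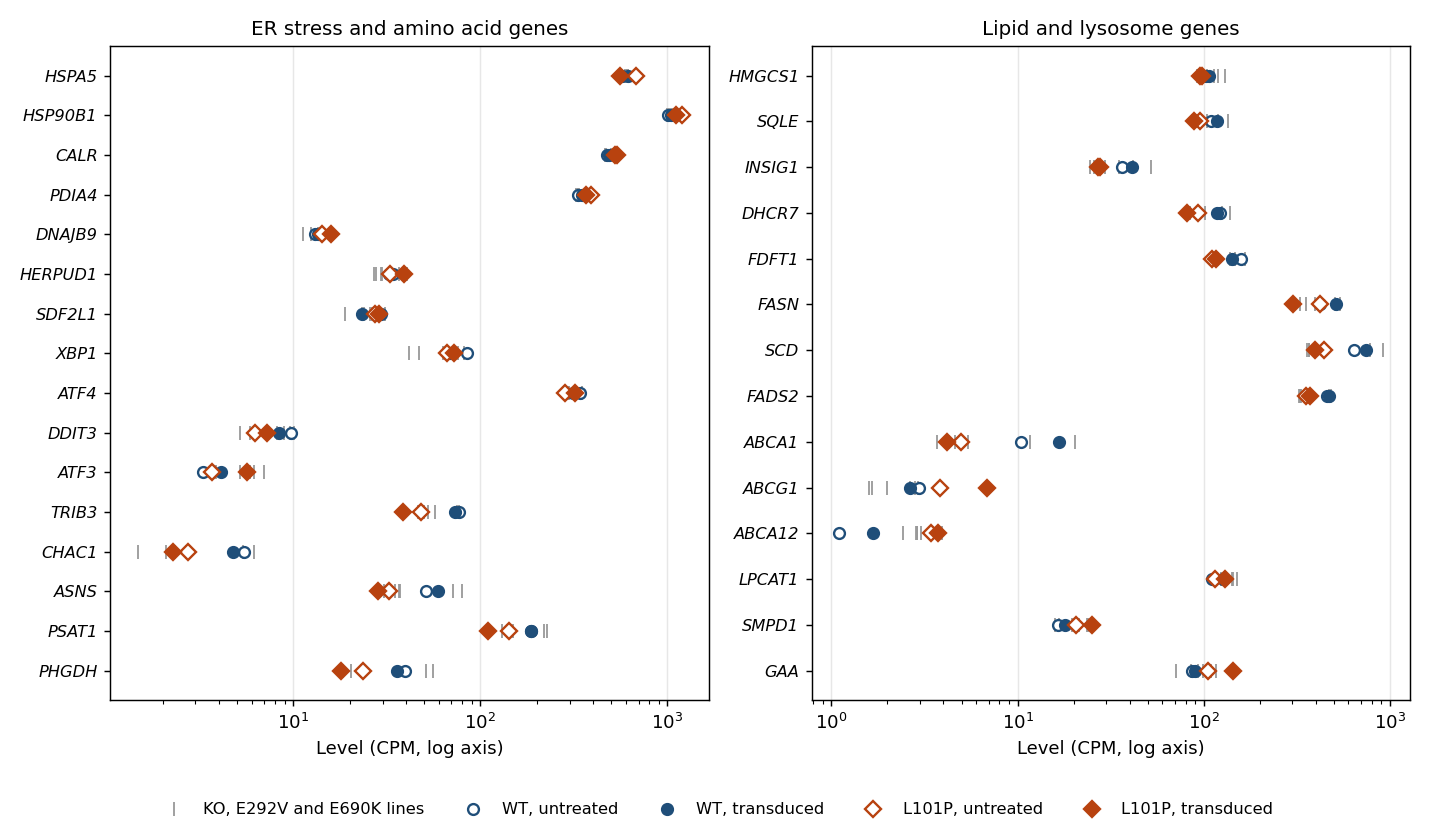
Levels (CPM, log axes) of genes picked from the lists of the unfolded protein response, amino acid, lipid and lysosome genes, with circles for WT, diamonds for L101P, open symbols for untreated and filled for transduced cells, and grey ticks for the other 6 libraries. TRIB3, CHAC1, ASNS and PHGDH were lower in both L101P libraries, while HSPA5 overlapped between the lines.

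Lipid genes moved singly. Of 14 ABCA and ABCG transporters tested 1 was higher and 1 lower. ABCA1, which exports cholesterol and phospholipid to apolipoproteins, was at 10.4 and 16.8 CPM in WT and at 4.96 and 4.18 CPM in L101P (-1.52, SE 0.27, edgeR adjusted p 0.00958), a call lost without the transduced WT library. ABCA12, the lipid transporter of keratinocyte lamellar granules, was at 1.10 and 1.67 CPM in WT and at 3.43 and 3.72 CPM in L101P (1.42, SE 0.25, edgeR adjusted p 0.00958), a call lost without the untreated WT library. ABCA2 and ABCA7, close relatives of ABCA3 and ABCA1, did not pass, with log2 fold changes of 0.24 (SE 0.08) and 0.28 (SE 0.11). Among 12 tested surfactant and alveolar type 2 genes, 0 passed in edgeR, 0 at an unadjusted p under 0.05, and 0 by the DESeq2 Wald test. Among settings that kept these 4 libraries, the list gave 1 higher gene with no filter on low counts, 1 without the KO pair and 1 with only the 4 libraries of L101P and WT. Higher genes also appeared in it without the untreated L101P library. LPCAT1, which makes the saturated lecithin of surfactant, was at 111 and 127 CPM in WT and at 115 and 130 CPM in L101P. The untested SFTPA1 and SFTPB had at most 12 counts in any of the 4 libraries.

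Of 24 cholesterol synthesis genes 2 were lower, and 18 lay below WT in both pairs (median -0.18). For comparison, 33.9% of the expressed genes in windows along the genome, described in the last section, were lower in both pairs. The 2 lower genes were INSIG1, which holds the SREBP pathway in the ER, and DHCR7, the last enzyme of the route. DHCR7 was at 122 and 118 CPM in WT and at 92.9 and 81.4 CPM in L101P (-0.42, SE 0.10, edgeR adjusted p 0.0294). INSIG1 had an edgeR adjusted p of 0.0497. The count was 0 without either WT library, 0 without the E690K pair and 5 with no filter on low counts. Of 25 fatty acid and phospholipid genes 1 was higher and 2 lower: SCD, the stearoyl-CoA desaturase, was at 640 and 744 CPM in WT and at 442 and 395 CPM in L101P (-0.69, SE 0.11, edgeR adjusted p 0.00749), a call lost without the transduced WT library. Of 26 lysosome and autophagy genes 2 were higher, the glycogen-degrading GAA and the sphingomyelinase SMPD1, with log2 fold changes of 0.54 (SE 0.13) and 0.45 (SE 0.11). The median of that list was -0.03, with 13 genes lower and 4 higher in both pairs. Neither GAA nor SMPD1 passed without the KO pair, without the E690K pair or with the KO labels exchanged.

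The complement, fibrinogen and serpin list had 0 of 20 tested higher and 4 lower (median -0.19). Its pair medians had opposite signs, -0.39 untreated and 0.28 transduced. In both pairs 5 of the 20 were lower, beside 33.9% of the expressed genes in the genome windows. FGB, FGA and FGG encode the chains of fibrinogen and neighbour each other on chromosome 4. FGB was at 217 and 157 CPM in WT and at 97.5 and 88.9 CPM in L101P (-0.94, SE 0.09, edgeR adjusted p 0.000486). FGA and FGG fell by 0.69 (SE 0.08) and 0.88 (SE 0.12) on the log2 scale, with edgeR adjusted p of 0.00168 and 0.00213. Complement C5 was at 84.2 and 83.1 CPM in WT and at 59.5 and 55.6 CPM in L101P (-0.50, SE 0.08, edgeR adjusted p 0.00521). C5 lost its call without the transduced WT library, and FGA with the KO labels exchanged. FGB and FGA were higher in L101P than in E690K, by 0.61 and 0.53 on the log2 scale (edgeR adjusted p 0.0153 and 0.0199), so that L101P lay between WT and E690K.

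Of 25 p53 response genes 0 were higher and 3 lower (median -0.19). In both pairs 17 lay below WT, beside 33.9% of the expressed genes in the genome windows. GDF15, a stress-induced secreted cytokine, was at 125 and 83.2 CPM in WT and at 54.2 and 39.9 CPM in L101P (-1.09, SE 0.14, edgeR adjusted p 0.00168). BAX and CCNG1 passed more narrowly, with edgeR adjusted p of 0.0416 and 0.0427, and CDKN1A and MDM2 did not pass (both log2 fold changes -0.15). The count was 1 without the KO pair, without the E690K pair, without either WT library and without the transduced L101P library. Among 28 genes of S phase and mitosis, RRM2, TOP2A and MKI67 were higher (median 0.15), a count of 1 without the untreated WT library; RRM2 was at 98.2 and 96.5 CPM in WT and at 140 and 157 CPM in L101P (0.65, SE 0.09, edgeR adjusted p 0.00262).

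Detoxifying enzymes were higher in part. Of 17 aldehyde dehydrogenases 4 were higher and 0 lower (median 0.14), led by ALDH3A1 at 1420 and 1150 CPM in WT and 2160 and 2630 CPM in L101P (0.96, SE 0.17, edgeR adjusted p 0.00886). Without the transduced WT library 0 of the 17 passed. Of 21 xenobiotic genes 4 were higher (median 0.25), among them CYP3A5 with a log2 fold change of 1.29 (SE 0.25), and this count was also 0 without the transduced WT library. Of 26 NRF2 genes 4 were higher and 1 lower (median 0.07), with 1 higher when the transduced WT library, the E690K pair or the KO pair was left out. The conjugate exporter ABCC3 was at 385 and 418 CPM in WT and at 587 and 739 CPM in L101P (0.76, SE 0.12, edgeR adjusted p 0.00591). HMOX1, haem oxygenase 1, was the lower gene, at 398 and 388 CPM in WT and at 238 and 156 CPM in L101P (-0.98, SE 0.20, edgeR adjusted p 0.0179). NQO1, an NRF2 target, did not pass (0.15, SE 0.09, edgeR adjusted p 0.436).

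Signalling lists held few genes that passed, and most of their counts were smaller without the transduced WT library. Of 23 immediate early genes 4 were higher and 1 lower (median 0.22): EGR1 was at 1.56 and 1.70 CPM in WT and at 3.63 and 6.09 CPM in L101P (1.62, SE 0.25, edgeR adjusted p 0.00541), while the phosphatase DUSP1 was lower (-0.63, SE 0.09, edgeR adjusted p 0.00413). The EGFR ligands AREG and EREG were higher by 0.53 (SE 0.11) and 0.33 (SE 0.08), 2 of 13 tested in the EGFR list. Of 24 NF-kB targets, chemokines and cytokines CXCL8 was higher (1.58, SE 0.31) and IL11 and CSF1 lower (-1.36, SE 0.22, and -0.64, SE 0.13). Of 20 YAP and TEAD targets, NT5E was higher (0.71, SE 0.13) and ANKRD1 lower (-1.59, SE 0.32). Of 28 hypoxia and glycolysis genes 5 were higher, among them the lactate exporter SLC16A3 (0.63, SE 0.08), and adrenomedullin, ADM, was lower (-1.0, SE 0.17). For 20 endoderm transcription factors, 17 genes of HLA and antigen presentation, 4 metallothioneins and 13 genes of the mitochondrial genome, 0 passed in edgeR, with 6, 5, 0 and 0 at an unadjusted p under 0.05 and 1, 3, 0 and 0 past the DESeq2 Wald test. Among all 17978 genes tested, 3292 had an edgeR unadjusted p under 0.05.

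The remaining lists each had at most 2 genes in either direction. Without the transduced WT library 0 genes passed in the tight junction, TGF-beta and WNT lists, and 0 were higher in the retinoid list. CLDN2 and CLDN4 were higher and CLDN1 lower among 18 tight junction genes, TGFBR1 and TGFBR2 were higher among 24 TGF-beta and BMP genes, and WNT7B and SFRP1 were higher and JAG2 lower among 20 WNT and NOTCH genes. OAS1 and OAS3 were higher among 26 interferon genes, and DCLK1 and NRP1 were higher among 15 growth-cone genes in which DPYSL3 was lower. Among 18 genes of epithelial and mesenchymal state S100A4 was higher and SPARC lower, and CDH1 and VIM did not pass (log2 fold changes 0.01 and 0.15). PTGES and STRA6 were higher and RARB and TGM2 lower among 19 retinoid and prostaglandin genes. Of 7 GDNF receptor genes only GFRA1 passed; RET was at 1.42 and 2.09 CPM in WT and at 1.68 and 2.62 CPM in L101P.

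Whether the difference between L101P and WT itself differed between the pairs was tested with an interaction term that left 2 residual degrees of freedom. In all 299 genes passed (1.66%), 166 with a higher (0.923%) and 133 with a lower difference (0.74%) in the transduced pair, and 34 of them were among the 709. Without the E690K pair 1 gene passed, and without the KO and the E292V pair 822 and 1230 passed. Of the 24 named genes only FLRT2 passed. Over the 9458 genes whose mean reached 10 CPM, the log2 change from untreated to transduced cells had a standard deviation of 0.25 in L101P and 0.19 in WT.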

How the data were processed

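RNA-seq counts of 10 A549 libraries were used, 1 per line and vector status. The authors deposited whole-number counts per gene, and per the labels' protocols a total-RNA kit was used. Per the submitters' processing notes the tools included featureCounts, Subread, edgeR and limma, with the build GRCh38; their roles, versions and strand use are not given in the sources used here. Gene positions are from GENCODE release 29, matched by name for 98.7% of 33551 rows, and every column was used. Among counts of 1 to 10, most were even (80.6% to 82.7% per library), so Wilson intervals (95%) use counts divided by 2.

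Counts were fitted in edgeR 4.0.16 (R 4.3.3; filterByExpr, TMM factors 0.972 to 1.03, quasi-likelihood test, Benjamini-Hochberg adjustment, threshold 0.05) by line plus vector status, with 4 residual degrees of freedom. Pairs come from the vector labels. The standard error is the log2 fold change over the square root of F. Named genes were the 12 higher and 12 lower that passed, averaged at least 1 in log2 CPM and had the same direction in both pairs, ranked by the smaller pair ratio (counts under 3 set to 3), and up to 4 passing genes per list. The members, the 45 lists and the tests were chosen with earlier results of these data known. Tested on simulated data of 17168 genes, 93 of 100 genes changed by 1 in log2 and 100 of 100 changed by 3 were recovered, with 12 false calls. The simulation gave all genes 1 common dispersion and held no other line difference and no departure from additivity. Its error rates therefore need not hold for the real libraries. DESeq2 1.42.0, other filters and left-out libraries were alternatives. Some genes of the lists are counted but not reported by name here.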

Additional observations from a re-analysis of the deposited data

Results flagged for a closer look

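In all, 10 named or listed genes that passed for L101P against WT had differences that themselves differed between the untreated and the transduced pair by the interaction test (2 residual degrees of freedom, edgeR adjusted p under 0.05). The difference was larger in the transduced pair for the higher genes FCGBP (0.68 and 1.80 on the log2 scale in the untreated and transduced pair, interaction 1.17, edgeR adjusted p 0.0308), KRT19 (0.55 and 1.71, interaction 1.20, edgeR adjusted p 0.0361) and S100A4 (0.45 and 1.57, interaction 1.17, edgeR adjusted p 0.00635). The same held for COL17A1 (0.83 and 2.39, interaction 1.61, edgeR adjusted p 0.0276), OAS1 (0.50 and 1.77, interaction 1.32, edgeR adjusted p 0.0113), ALDH3B1 (0.31 and 0.85, interaction 0.59, edgeR adjusted p 0.047) and CHGB (0.47 and 1.76, interaction 1.34, edgeR adjusted p 0.0191). CHGB was the only neuroendocrine marker of 3 tested that passed against WT. FLRT2 (-3.09 and -6.14, interaction -3.0, edgeR adjusted p 0.0262) and BCAT1 (-1.09 and -3.78, interaction -2.64, edgeR adjusted p 0.0276) were lower by more in the transduced pair. FGG was lower by less there (-1.22 and -0.63, interaction 0.63, edgeR adjusted p 0.0276). Each pair is 1 library a side, and over all genes tested the interaction count was 1 without the E690K pair. Listed genes that did not pass against WT are left out above. With them included, the interaction test was passed by 7 of 15 keratins, 7 of 28 basement membrane and collagen genes and 5 of 13 mitochondrial genome genes. These were the lists with the most such members, beside 1.66% of all genes tested.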

How the results depend on the processing

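No named gene changed sign in its contrast with WT under these settings, but the balance of higher and lower genes did turn: from 59.1% to 46.2% higher without the transduced L101P library for L101P against WT, from 212 and 118 to 28 and 56 without that library and to 2 and 9 without the E292V pair against the other edited lines, and from 166 and 133 to 149 and 154 for the interaction with at least 10 counts required in every library. For L101P against WT the 709 genes became 1437 with no filter on low counts, 1236 under the DESeq2 Wald test, 439 without the KO pair and 367 without the E690K pair or with the KO labels exchanged. Leaving out 1 library of L101P or WT gave 180 to 1967 genes. With no vector term, so without the replicate block of matched libraries, 512 passed. For L101P against the other edited lines the 330 genes became 1012 with no filter, 716 under the DESeq2 Wald test, 683 without the KO pair, 11 without the E292V pair, 170 with the KO labels exchanged and 84 to 1815 without 1 library; the contrasts with 1 line, added after seeing the data, gave 25 (KO), 2476 (E292V) and 124 (E690K). For the interaction the 299 genes became 946 with no filter, 822 without the KO pair, 1230 without the E292V pair and 1 without the E690K pair; leaving out a library of L101P or WT leaves no estimate. Over the genes named, 1303 results stayed on their side of the threshold, 313 lost it and 3, all of ABCA3, gained it. A left-out library leaves its line with 1 sample, assumed to vary like the other lines. The cause of these changes was not tested. Depth limits the genes near 0 counts, such as GFRA1 and APBB1IP.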

Other observations

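Windows of 30 consecutive expressed genes were read along the genome, a scan and a limit of 0.2 log2 chosen after the data were seen. Of 383 windows, 1 had a median past that limit in both pairs. It spans 43525497 to 44889228 on chromosome 19 (GRCh38), with medians of -0.21 in the untreated and -0.25 in the transduced pair. In it 18 of 30 genes were lower in L101P in both pairs and 18 had zinc-finger names. Counted in either direction, 4 of the 30 passed the test, PLAUR, KCNN4, ZNF229 and BCAM, beside 3.94% of all genes tested. Over all windows 33.9% of genes were lower in both pairs, a median of 10 per window. Windows with at least 18 such genes numbered 7, of which 6 lay on chromosome 19, so that the limit of 0.2 singles out 1 of several. The window from 57389850 to 58362848 had 21 such genes and 27 zinc-finger names (medians -0.16 and -0.57), and that from 35935358 to 38208372 had 19 of each (-0.18 and -0.48). Whole chromosomes had medians between -0.09 and 0.05 in the untreated pair and between -0.14 and 0.02 in the transduced pair.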
